A study of Danio rerio with 8 samples.

Results

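Zinc entering a vertebrate cell is bound by metallothioneins, small cysteine-rich proteins that buffer the free ion. The transcription factor MTF1 binds zinc through its zinc fingers and then switches on metallothionein genes and the exporter SLC30A1, which carries zinc out across the plasma membrane. SLC39A10, by contrast, is an importer of the ZIP family, and its transcription is known in mammalian cells and in zebrafish gill to be held down by MTF1 when zinc is high. In fish larvae, metallothionein transcripts are widely used as a marker of exposure to metals.

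This zinc-sensing circuit was followed in zebrafish through every probe whose RefSeq accession belongs to mt2 (a metallothionein), mtf1 (the sensor), slc30a1a (the exporter) or slc39a10 (the importer). These are 4 of the 13293 genes that could be named, with 8 of the 43603 zebrafish probes. The gene mt2 had 3 probes (A_15_P105247, A_15_P631386 and A_15_P655431), mtf1 had 3 (A_15_P100565, A_15_P693896 and A_15_P760521), slc30a1a had 1 (A_15_P210911) and slc39a10 had 1 (A_15_P118323). All 8 probes were well above background on all 8 arrays, none was saturated, and none had a spot marked as an outlier.

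Transcripts were measured on 1-color Agilent arrays in whole larvae aged 96 h, with Cy3-labelled cRNA. The control larvae were not treated (2 arrays), and the others received ZnO NPs, which are zinc oxide nanoparticles, at 2.64 mg/L (3 arrays) or ZnSO4, a dissolved zinc salt, at 7.75 mg/L (3 arrays). Each dose was labelled as the concentration lethal to 25% of the fish (LC25). The treatments were thus nominally matched on lethality and differed in mass of compound per litre. The paper estimated LC25 in a separate plate test of embryos, and not on the larvae used for RNA. In terms of measured zinc, the paper reports similar LC25 values for both treatments, with wide confidence intervals. The methods describe each RNA as a pool of the larvae of 1 dish, so an array averages over animals and over all tissues. No strain is named in the labels.

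All 8 arrays lay on 1 slide. Sides of the slide were inferred from the position numbers in the array barcodes. Side here means the first of these numbers, and which part of the slide it marks was not established. Side 1 held the controls with ZnO NP replicates 1 and 2. Side 2 held ZnO NP replicate 3 with all ZnSO4 arrays, so that no control array shared a side with a ZnSO4 array. The share of probes with a signal well above background ranged from 77.5% to 85.84%. Control replicate 1 stood apart from the other arrays. It was the lowest of the 8 for 30.8% of tested probes and the highest for 23.3%, where control replicate 2 was so for 11.1% and 11.6%. The SD of log2 differences over probes was 0.351 to 0.428 between control replicate 1 and any other array, control replicate 2 included, and 0.235 to 0.342 between all other pairs of arrays. As a check of the whole-body label, 14 of 16 marker genes of 10 tissues had a probe, and all 14 were detected on all 8 arrays. Their median log2 difference from control ranged from -1.04 (ca15a of ionocytes, ZnSO4) to 0.53 (cpa5 of exocrine pancreas, ZnSO4), and the part of tissue makeup in the results below was not tested. Signals are given as scaled signal, which is the background-subtracted intensity after every array was brought to the same 75th percentile.

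The metallothionein mt2 had higher signals in every zinc-exposed array than in either control array, at all 3 probes. The difference averaged 1.80-fold with ZnO NPs and 2.02-fold with ZnSO4 over its probes, yet it did not pass the adjusted threshold in either case. Separation from the controls was common, as 23.7% of all probes tested had every ZnO NP array above both controls. For ZnSO4 the share was 19.6%. At A_15_P105247 the scaled signal was 20110 and 16110 in control larvae, 25530, 32970 and 45000 after ZnO NPs, and 36690, 34840 and 37980 after ZnSO4. The lowest treated array, ZnO NP replicate 1, lay above both control arrays, and ZnO NP replicate 3 was the highest of the 8. In bulk RNA of whole larvae, more cells of a type and more RNA per cell cannot be told apart.

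At A_15_P631386 the scaled signal was 13400 and 10740 in control larvae, 13470, 19700 and 30880 after ZnO NPs, and 25460, 21530 and 24460 after ZnSO4. Here ZnO NP replicate 1 was nearly level with control replicate 1, and the groups were separated by that narrow gap alone. At A_15_P655431 the scaled signal was 8050 and 6687 in control larvae, 10200, 13270 and 18680 after ZnO NPs, and 15140, 14130 and 15660 after ZnSO4. The order of the arrays matched that at A_15_P105247, and neither treated group overlapped the control group.

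**Figure D1:**
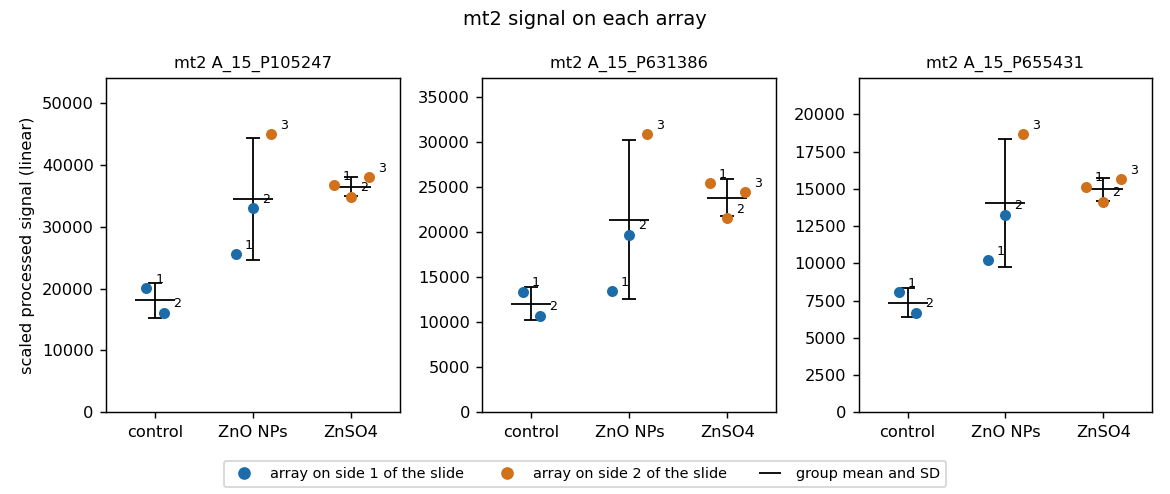
Scaled processed signal (linear axis from 0) of the 3 mt2 probes on each array, by group, with replicate numbers beside the points, colors for the side of the slide and bars for the group mean and SD. At all 3 probes the ZnO NP arrays spread from the lowest treated array (replicate 1) to the highest of all 8 arrays (replicate 3), while the 3 ZnSO4 arrays lie close together. Replicate 1 lies above both controls, by little at A_15_P631386.

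Group means of mt2 at A_15_P105247 were 18110 ± 2830 (SD, n = 2) in control larvae, 34500 ± 9826 (SD, n = 3) after ZnO NPs and 36510 ± 1577 (SD, n = 3) after ZnSO4. With limma over 34616 probes, its log2 difference from control was 0.90 (SE 0.22, adjusted p = 0.108) for ZnO NPs and 1.02 (SE 0.22, adjusted p = 0.161) for ZnSO4. At A_15_P631386 it was 0.75 (limma SE 0.31, adjusted p = 0.185) and 0.99 (adjusted p = 0.195). At A_15_P655431 it was 0.89 (limma SE 0.23, adjusted p = 0.11) and 1.03 (adjusted p = 0.162). Ordered by log2 difference from control, the mt2 probes stood at places 200, 407 and 205 from the top of 34616 for ZnO NPs, and at 146, 166 and 139 for ZnSO4. Without control replicate 1 the log2 differences were 1.06, 0.91 and 1.03 for ZnO NPs and 1.18, 1.15 and 1.16 for ZnSO4. Control replicate 2 had the lowest mt2 signal of all arrays at each probe. Without it the log2 differences were smaller in both treatments, at 0.86, 0.83 and 0.89 for ZnSO4. Each of these fits had a single control array.

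The 3 mt2 arrays of the ZnO NP group were much farther apart than those of the ZnSO4 group. The SD of the log2 signal was 0.41, 0.60 and 0.44 in the ZnO NP group at A_15_P105247, A_15_P631386 and A_15_P655431, against 0.063, 0.13 and 0.076 in the ZnSO4 group. Over all probes tested, the median SD was 0.11 in the ZnO NP group and 0.085 in the ZnSO4 group. Of all probes tested, 3.82%, 1.27% and 3.13% had a larger SD in the ZnO NP group than these mt2 probes, so mt2 was among the more variable transcripts there. Between the lowest and the highest ZnO NP array, mt2 signals differed 1.76-fold, 2.29-fold and 1.83-fold. ZnO NP replicates 1 and 2 lay on side 1 of the slide, while replicate 3 and all ZnSO4 arrays lay on side 2. The part of the side in this spread was not tested.

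The 3 probes of mt2 had similar patterns over the arrays, which were examined because probes of a gene can differ in specificity. Across the 8 arrays, the log2 signals of A_15_P105247 and A_15_P655431 correlated at r = 0.999, and A_15_P631386 correlated with them at r = 0.97 and r = 0.977. These values describe arrays that share their labelled RNA, so they measure probe performance and not animals. They do not show that the probes are specific. The largest gap in change from control was that between A_15_P105247 and A_15_P631386 for ZnO NPs, with a log2 difference of 0.15 (95% confidence interval -0.11 to 0.41, limma adjusted p = 0.934). The median absolute gap over all pairs of the series was 0.072 in that comparison. Across the series, 0 of 17130 pairs of probes of the same gene (0%) differed in change at an adjusted p under 0.05 in limma. With no pair called anywhere, this test does not show that the probes agree. At A_15_P105247 and A_15_P631386 duplicate spots on an array differed by at most 0.10 and 0.12 on the log2 scale.

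The exporter slc30a1a had the smallest p of the 8 probes in both treatments. Its probe A_15_P210911 gave a scaled signal of 2834 and 2883 in control larvae, 3848, 4117 and 4887 after ZnO NPs, and 4236, 4270 and 4776 after ZnSO4. All 6 treated arrays lay well above both control arrays, which were nearly equal to each other, and ZnO NP replicate 3 was again the highest. Of all probes tested, 23.7% had every ZnO NP array above both controls, and 19.6% had every ZnSO4 array above both. Group means were 2858 ± 34.8 (SD, n = 2) in control larvae, 4284 ± 539 (SD, n = 3) after ZnO NPs and 4427 ± 302 (SD, n = 3) after ZnSO4.

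The exporter was thus 1.49-fold higher than control after ZnO NPs, with a 95% confidence interval of 1.24 to 1.79 (log2 difference 0.58, SE 0.11, limma adjusted p = 0.0975). After ZnSO4 it was 1.55-fold higher, with an interval of 1.29 to 1.86 (log2 difference 0.63, limma adjusted p = 0.126). Over both zinc treatments taken as 1 group of equal weights, slc30a1a had the smallest adjusted p of the 8 probes in limma (log2 difference 0.60, adjusted p = 0.076). Without control replicate 2 that comparison passed the threshold (log2 difference 0.62, limma adjusted p = 0.0463), in a fit where the lone control array was assumed to vary like the other groups. That fit rests on control replicate 1 as its only control, and it called 1084 probes up and 432 down of 34678. Without control replicate 1 instead, the value was 0.59 and did not pass (limma adjusted p = 0.245). Of all probes tested, 91.6% had a larger SD between the control arrays than slc30a1a did.

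The sensor mtf1 itself had higher signals in all 6 treated arrays than in both control arrays. Its gene means were 1.25-fold and 1.21-fold above control after ZnO NPs and ZnSO4. Such a separation was seen for 23.7% of all probes tested with ZnO NPs and for 19.6% with ZnSO4. At A_15_P760521, the probe with the largest difference, the scaled signal was 1573 and 1842 in control larvae, 2074, 2141 and 2364 after ZnO NPs, and 1997, 2340 and 1977 after ZnSO4. The highest arrays were ZnO NP replicate 3 and ZnSO4 replicate 2, and the groups did not overlap with control. At A_15_P100565 it was 1372 and 1576 in control larvae, 1748, 1761 and 2005 after ZnO NPs, and 1736, 1860 and 1589 after ZnSO4. There ZnSO4 replicate 3 exceeded control replicate 2 by little. At A_15_P693896 it was 662 and 775 in control larvae, 867, 854 and 920 after ZnO NPs, and 852, 944 and 814 after ZnSO4, again without overlap.

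The log2 difference of mtf1 from control after ZnO NPs was 0.36 at A_15_P760521, 0.32 at A_15_P100565 and 0.30 at A_15_P693896, with limma adjusted p-values of 0.128, 0.141 and 0.14. After ZnSO4 the log2 difference was 0.30, 0.23 and 0.28 at the same probes, with limma adjusted p-values of 0.235, 0.298 and 0.224. Without control replicate 1, whose mtf1 signal was the lowest of the 8 at all 3 probes, these log2 differences were 0.25 or less, with 0.18 at A_15_P693896 for ZnO NPs and 0.13 at A_15_P100565 for ZnSO4. The 3 mtf1 probes correlated with each other over the 8 arrays at r = 0.956, 0.969 and 0.981. Their changes from control differed from one another by at most 0.072 on the log2 scale. As for all pairs of probes of a gene in the series, no such difference passed the adjusted threshold in limma.

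The importer slc39a10 was the only one of the 4 genes whose treated means lay below the control mean. Its probe A_15_P118323, which was dim but above background, gave a scaled signal of 52.9 and 61.9 in control larvae, 51.3, 59.1 and 45.8 after ZnO NPs, and 46.5, 48.4 and 47.8 after ZnSO4. All 3 ZnSO4 arrays lay below both control arrays, as for 19.6% of all probes tested. ZnO NP replicate 2 lay between the controls. The log2 difference from control was -0.15 (95% confidence interval -0.42 to 0.13, limma adjusted p = 0.466) for ZnO NPs and -0.27 (interval -0.54 to 0.0090, adjusted p = 0.281) for ZnSO4. Without control replicate 2 these were -0.032 and -0.16, and without control replicate 1 they were -0.26 and -0.38. With the normexp background correction they were 0.0030, on the other side of 0 for ZnO NPs, and -0.10, and with quantile normalization -0.31 and -0.37 (limma adjusted p = 0.138 and 0.165).

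**Figure D2:**
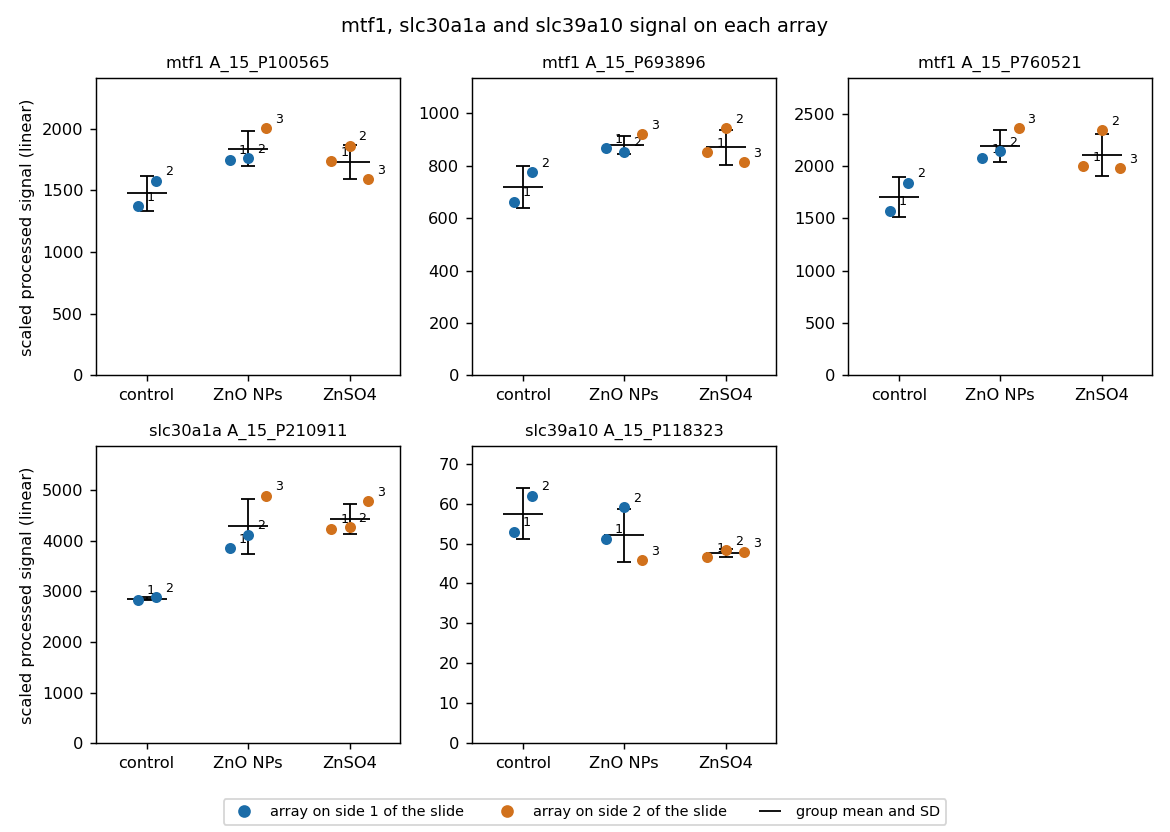
Scaled processed signal (linear axis from 0) of the 3 mtf1 probes, slc30a1a and slc39a10 on each array, drawn as in the plot of mt2. The treated arrays of mtf1 and slc30a1a lie above both controls, with the widest gap relative to spread for slc30a1a, and the 3 ZnSO4 arrays of slc39a10 (46.5 to 48.4) lie below both controls.

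No probe of the 4 genes met the full criterion of a fold of at least 1.5 and an adjusted p under 0.05 in limma. For ZnO NPs against control 0 of 8 were called up, where 0.0231% of all probes tested were, and 0 were called down (0.0202% of all). For ZnSO4 0 of 8 were called in either direction, where 0.0116% of all probes were called up and 0.0116% down. For both treatments as 1 group 0 of 8 were called, where 0.0404% of all probes were called up and 0.0318% down. The methods name a 3-group test with LSD comparisons without tying it to the arrays. Run here with Benjamini-Hochberg adjustment, that test also called 0 of the 8 in these comparisons. Over all 34616 probes it called 0 up and 2 down for ZnO NPs, 0 and 1 for ZnSO4, and 1 and 1 for both.

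At an unadjusted p under 0.05 in limma and any fold, 7 of 8 probes were higher after ZnO NPs (15.1% of all probes) and 6 of 8 after ZnSO4 (9.16% of all). With a fold of at least 1.5 added, 3 of 8 remained for ZnO NPs (2.1% of all), all of mt2, and 4 of 8 for ZnSO4 (1.39% of all), those of mt2 and slc30a1a. For both treatments together the counts were 7 of 8 (13.7% of all) and 4 of 8 (1.45% of all). The slc30a1a fold for ZnO NPs missed that limit narrowly. Every treated array lay above both control arrays for 7 of 8 probes with ZnO NPs (23.7% of all probes) and for 7 of 8 with ZnSO4 (19.6% of all), and every ZnSO4 array lay below both for slc39a10 (19.6% of all). The comparisons share the control arrays, and probes of a gene share their transcript, so these counts are not independent of each other. The genes were also chosen with earlier results of these data known, so setting them beside all probes is description and no test. The median log2 difference of the 8 probes was 0.47 for ZnO NPs and 0.47 for ZnSO4, beside 0.031 and 0.018 over all probes tested.

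The means of the probes of each gene were fitted in the same way over 12123 genes. With ZnO NPs, mt2 was 1.80-fold above control, with a 95% confidence interval of 1.21 to 2.68 (limma adjusted p = 0.101), and stood at place 57 from the top. With ZnSO4 it was 2.02-fold above control, with an interval of 1.35 to 3.00 (limma adjusted p = 0.121), at place 35. The sensor mtf1 was 1.25-fold and 1.21-fold above control (limma adjusted p = 0.11 and 0.201). None of the 4 genes was called, where 0.0412% of genes were called up and 0.033% were called down with ZnO NPs, beside 0.066% and 0.0825% with ZnSO4. The order of the mean changes was mt2, slc30a1a, mtf1 and slc39a10 in both treatments, and differences between genes were not tested.

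The question of whether the nanoparticle treatment and the zinc salt acted differently on these genes was put by comparing the treated groups directly. The paper reports dissolved zinc in the ZnO NP treatments too, so the contrast does not isolate the particles. No probe of the 8 was called in that comparison, and 0% of all probes were called up or down. At an unadjusted p under 0.05 in limma 0 of 8 differed, where 3.93% of all probes were higher and 1.77% lower after ZnO NPs. In a limma fit that included the slide side as a fixed term, 19 of all probes were called up and 1 down in this comparison, and 0 of the 8. For mt2 the log2 difference (ZnO NPs minus ZnSO4) was -0.12 (95% confidence interval -0.58 to 0.34) at A_15_P105247, -0.24 (-0.88 to 0.40) at A_15_P631386 and -0.14 (-0.61 to 0.34) at A_15_P655431. For slc30a1a it was -0.053 (-0.29 to 0.18), for slc39a10 0.12 (-0.13 to 0.37), and for the mtf1 probes between 0.019 and 0.089, with intervals from -0.19 to 0.31. All limma adjusted p-values lay between 0.85 and 0.973. The intervals of mt2 reach from 0.55 to 1.32 times the ZnSO4 level at A_15_P631386, so they do not show that the treatments acted alike.

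**Figure D3:**
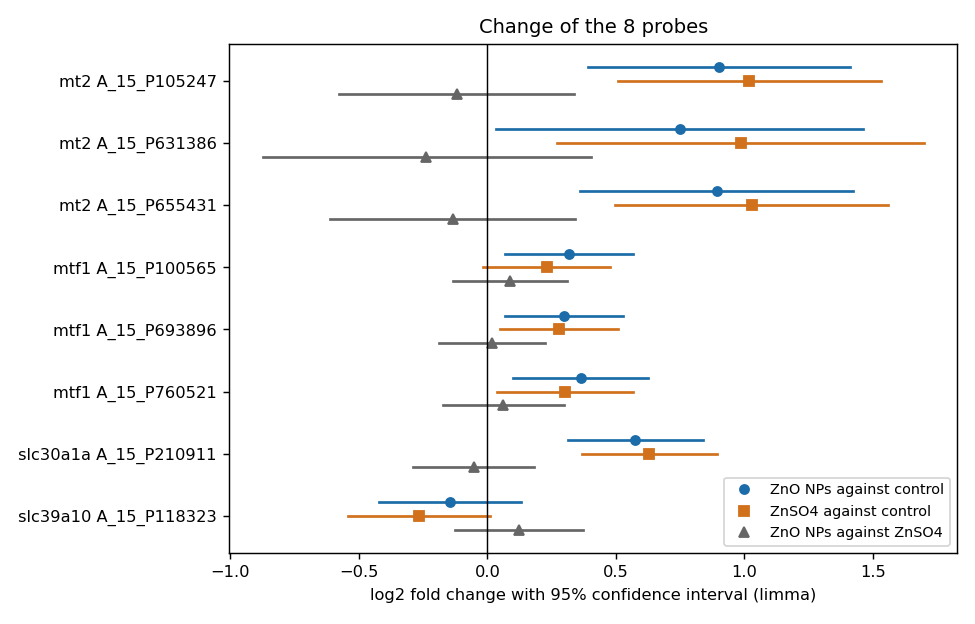
Log2 fold change with its 95% confidence interval from limma for each of the 8 probes, for ZnO NPs against control, ZnSO4 against control and ZnO NPs against ZnSO4. Before adjustment, intervals of mt2 and slc30a1a against control lie above 0, as do those of mtf1 except at A_15_P100565 with ZnSO4. Every interval of the direct comparison crosses 0.

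Sides of the slide were compared because they overlap with the groups. Within side 1, where ZnO NP replicates 1 and 2 lay beside both controls, the log2 difference from control was 0.69, 0.44 and 0.67 at mt2 probes A_15_P105247, A_15_P631386 and A_15_P655431. On the same side it was 0.48 for slc30a1a, between 0.26 and 0.31 for mtf1 and -0.057 for slc39a10. The direction for each probe was thus that of the full comparison, with a smaller size. At A_15_P631386 the value without ZnO NP replicate 3 was 0.44 against 0.75 with it (limma adjusted p = 0.269 and 0.185).

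Within side 2, ZnO NP replicate 3 exceeded the mean of the 3 ZnSO4 arrays by 0.30, 0.38 and 0.32 on the log2 scale at the same mt2 probes, by 0.15 at slc30a1a and by 0.083 to 0.22 at mtf1. The sign for mt2 and slc30a1a was there the opposite of that in the full comparison, and 1 ZnO NP array stood on that side. ZnO NP replicate 3 also exceeded ZnO NP replicates 1 and 2 by 0.63, 0.92 and 0.68 at mt2, and by 0.30 at slc30a1a. With the side as a fixed term in limma, the log2 difference of ZnSO4 from control was 0.39, 0.063 and 0.35 at the mt2 probes (adjusted p = 0.706, 0.964 and 0.718) and 0.33 at slc30a1a (adjusted p = 0.636). In that fit, the side is estimated only from the ZnO NP arrays, 1 of them on side 2. With the side as a random block, the log2 difference of ZnSO4 from control was 1.05, 1.03 and 1.06 at mt2 and 0.64 at slc30a1a. Without a side term these values were 1.02, 0.99, 1.03 and 0.63. The random block thus moved them little and does not show them to be free of the side. For ZnSO4 against control, treatment and side cannot be told apart without the ZnO NP arrays.

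**Figure D4:**
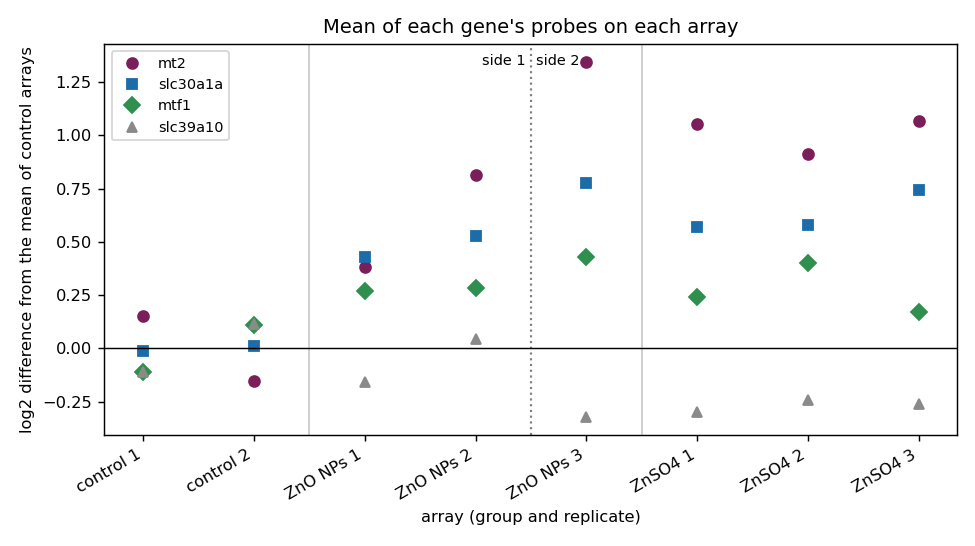
Log2 difference of each array from the mean of the control arrays, for the mean of each gene's probes, with the arrays in order of group and replicate and a dotted line between the sides of the slide. mt2 runs from 0.38 to 1.35 over the ZnO NP arrays and from 0.91 to 1.07 over the ZnSO4 arrays, slc30a1a and mtf1 are above 0 in all treated arrays, and slc39a10 is below 0 in all but ZnO NP replicate 2.

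Read array by array as the mean of its probes, mt2 stood at 1.30, 1.76 and 2.54 times the control mean in ZnO NP replicates 1, 2 and 3, and at 2.07, 1.88 and 2.10 times in the ZnSO4 replicates. The exporter slc30a1a stood at 1.35, 1.44 and 1.71 times and at 1.48, 1.49 and 1.67 times in the same arrays. The sensor mtf1 stood at 1.21, 1.22 and 1.34 times after ZnO NPs and at 1.18, 1.32 and 1.13 times after ZnSO4. In the ZnO NP group, replicate 3 was the highest for mt2, slc30a1a and mtf1 and the lowest for slc39a10 (0.80 times the control mean). In the ZnSO4 group no such common order was seen, as mtf1 was highest in replicate 2 while mt2 and slc30a1a were highest in replicate 3.

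The genes whose pattern over the 8 arrays was most like that of each of the 4 were looked up as a description, with no test. For slc30a1a the closest was slc40a1 (A_15_P201926, r = 0.988), which encodes the iron exporter ferroportin, followed by tcf7l1b (r = 0.977) and cd9r (r = 0.975). For mt2 they were clk2a (r = 0.982), tlr4bb (r = 0.972) and nt5c2l1 (r = 0.972), for mtf1 fam149b1 (r = 0.985), dusp16 (r = 0.984) and fam168a (r = 0.984), and for slc39a10 cmtr1 (r = 0.972), scamp4 (r = 0.967) and rap1ab (r = 0.957). All these are maxima over 23095 probes or more and 8 arrays that share a slide, and 189 probes passed r = 0.9 with slc30a1a, 59 with mt2, 404 with mtf1 and 40 with slc39a10.

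Ferroportin is also a known MTF1 target in mouse, and slc40a1 had 4 probes. Their log2 difference from control was 0.37, 0.43, 0.53 and 0.51 for ZnO NPs and 0.48, 0.51, 0.41 and 0.36 for ZnSO4 at A_15_P102507, A_15_P201926, A_15_P201931 and A_15_P728216. None passed the adjusted threshold in limma. In all, 7 zebrafish orthologues of MTF1 targets in mouse had 15 tested probes, of which 0 were called in either comparison. Among all probes tested, 0.0231% were called up for ZnO NPs and 0.0116% for ZnSO4 (0.0202% and 0.0116% down), so this count is near those shares. Over these 15 probes the median log2 difference was 0.27 for ZnO NPs and 0.23 for ZnSO4, beside 0.031 and 0.018 over all probes. Genes with several probes weigh more in it, as slc40a1 does with 4, so it is not a median over genes. Single probes ranged from -0.35 to 0.56 and from -0.29 to 0.68. The targets did not share a direction. The lowest was selenoh, a selenoprotein gene named here after its values were seen, at -0.35 and -0.29 (limma adjusted p = 0.105 and 0.173). The 3 probes of gclc lay between -0.054 and 0.13 and csrp1b at -0.021 and 0.025. Of the 3 ndrg1a probes, 2 were below 0 in both treatments and A_15_P515117 was at 0.27 and 0.23. Both tested csrp1a probes were above 0, at 0.38 and 0.485 for ZnO NPs and at 0.225 and 0.321 for ZnSO4.

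Of these targets, ndrg1b was alone in reaching a fold of 1.5 at an unadjusted p under 0.05 in limma, with ZnSO4. That limit was passed upward by 1.39% of all probes tested. The gene encodes a protein of the stress-responsive NDRG family. Its probe A_15_P196411 gave a scaled signal of 1623 and 2628 in control larvae, 2845, 2556 and 3897 after ZnO NPs, and 3159, 3165 and 3603 after ZnSO4. The control arrays were far apart, and ZnO NP replicate 2 lay below control replicate 2. The log2 difference for ZnSO4 was 0.68 (SE 0.24, limma adjusted p = 0.221).

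The other zinc transporters of the SLC30, SLC39 and TMEM163 families had a median close to that of all probes. Of 22 listed, 14 had a tested probe, and 0 of their 25 tested probes were called in either comparison. Also 0 reached a fold of 1.5 at an unadjusted p under 0.05 in limma. Among all probes tested, 0.0231% were called up for ZnO NPs and 0.0116% for ZnSO4 (0.0202% and 0.0116% down). The unadjusted limit was passed upward by 2.1% and 1.39% of them. At such shares, 0 of 25 is no result about these transporters. The median log2 difference of these transporter probes was -0.011 for ZnO NPs and 0.016 for ZnSO4. Single probes ranged from -0.40 to 0.42 and from -0.17 to 0.49. Among the 22 listed, slc30a8, which loads zinc into secretory granules of mammalian pancreatic beta cells, was not matched through a RefSeq accession. Its probes are thus absent from the 25 tested. Probes A_15_P402260 and A_15_P682331 are annotated as LOC560642 in a supplementary list of responding probes, and were assigned to slc30a8 because 560642 is its RefSeq gene ID. They were chosen after their values were seen. The first was called up in limma after ZnO NPs (3.83-fold, adjusted p = 0.00913) and after ZnSO4 (3.56-fold, adjusted p = 0.015), and the second was 3.37-fold and 3.42-fold higher (limma adjusted p = 0.0586 and 0.0613).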

How the data were processed

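The authors deposited the scanner output of 8 arrays, made with Agilent Feature Extraction (version 10.10.1.1 per the file headers), whose intensity values are background-subtracted and detrended processed signals with spot flags. They also deposited a table of log2 values, which matched percentile-shifted, probe-centered log2 processed signals within 0.006 for 99.93% of values. The percentile, the scale and the centering of that table were inferred from this match.

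Control spots and outlier spots were left out, spots of a probe were averaged as log2, and each array's 75th percentile was subtracted. A probe entered the fit if it was well above background (on at least 50% of its spots) throughout 1 or more groups, and 34616 were tested. limma 3.58.1 in R 4.3.3 fitted the 3 groups together (5 residual and 2.42 prior degrees of freedom), with Benjamini-Hochberg adjustment over all probes. A probe was called at a fold of at least 1.5 and an adjusted p under 0.05. Replicates are pools from dishes, and the number of arrays limits the precision. Differences between probes of a gene and means of the probes of a gene were fitted in the same way. Only the fit of single probes was tested on simulated data.

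Probes were named through RefSeq accessions (25854 with 1 symbol, 17749 with none) in a table of assembly GRCz12tu. Since the array files name another build, coordinates are left out. All probes of the 4 genes are named, zinc-related genes past a fold of 1.5 at an unadjusted p under 0.05, and the 3 genes most like each. Other orthologues of MTF1 targets in mouse were named after their values were seen. Members and lists were chosen with earlier results of these data known. Equal replicate numbers did not pair samples. Alternatives changed the scaling, background correction, filter, outlier spots, test, call rule, blocks and arrays used. Mortality, malformation and qPCR data were not analysed here.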

Additional observations from a re-analysis of the deposited data

How the results depend on the processing

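Results were recomputed under 28 other settings, of which 25 had a fit of their own, and each log2 difference of the 8 probes under 20 to 22 of these. Of 680 values, 659 kept their direction and their side of the threshold, 20 changed sign and 1 passed the threshold. Since no value passed in the main fit, the 659 hold every value that kept its sign uncalled, whatever its size. An example is mt2 A_15_P631386 for ZnSO4 against control, at 0.99 in the main fit and 0.063 with the side as a fixed term. Some settings also repeat the same estimate, so the count does not measure robustness. Under other scalings, background correction and the authors' values, mt2 stayed between 0.66 and 0.95 for ZnO NPs and between 0.92 and 1.06 for ZnSO4, and slc30a1a between 0.49 and 0.60 and between 0.57 and 0.64. At an unadjusted p, or by fold alone without a test, the number of probes past the limit was 3 for ZnO NPs, 4 for ZnSO4 and 4 for both treatments together, instead of 0. By fold alone, ZnO NPs had 981 of 34616 probes higher and 426 lower, ZnSO4 744 and 462, and both 687 and 371. At an unadjusted p with the fold they were 727 and 330, 480 and 348, and 502 and 309.

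Leaving out each array in turn gave 0 to 1 probes called for both treatments against control and 0 to 3 gene means called, the highest being slc30a1a in all 3 comparisons with control without control replicate 2. Over all genes that fit called 381 up for ZnO NPs, 265 for ZnSO4 and 351 for both (5, 8 and 14 with all arrays). It has control replicate 1, the array that stood apart, as its only control, and 1253 probes were called up and 421 down for ZnO NPs (8 and 7 with all arrays), 569 and 353 for ZnSO4 (4 and 4) and 1084 and 432 for both (14 and 11). Without control replicate 1 the counts were 12 and 35 for ZnO NPs and 11 and 36 for ZnSO4. With normexp 1 gene mean was called (slc30a1a, both treatments, adjusted p = 0.0418), where 5 of 12123 genes were called up and 9 down. For ZnO NPs, calls up and down over all probes were 10 and 22 with a median shift, 9 and 12 with quantile normalization and 2 and 1 without a filter. For ZnSO4 they were 14 and 9 with the side as a random block and 4 and 7 with quantile normalization.

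Sign changes of ZnO NPs minus ZnSO4 were 0.30, 0.38 and 0.32 at mt2 (probes A_15_P105247, A_15_P631386 and A_15_P655431), 0.15 at slc30a1a and -0.053 at slc39a10, both with the side as a fixed term and within side 2. Without ZnO NP replicate 1 they were 0.078, 0.054 and 0.073 at mt2 and 0.021 at slc30a1a, the highest values with an array left out, and the lowest were -0.33, -0.54 and -0.36 at mt2 and -0.15 at slc30a1a, without ZnO NP replicate 3. At mtf1 A_15_P693896 the value was -0.0050 with a median shift, -0.013 without ZnO NP replicate 3 and -0.028 without ZnSO4 replicate 3 (highest 0.079, without ZnSO4 replicate 2). Leaving out ZnSO4 replicate 3 also gave 0.0030 at slc30a1a. With normexp it was -0.011 at mtf1 A_15_P100565, and slc39a10 was 0.0030 for ZnO NPs against control. The cause was not tested. With the replicate number as a block, 0 of the 8 probes were called in each comparison, and the calls up and down over all probes were 1 and 1 for ZnO NPs and for both treatments, and 0 and 1 for ZnSO4. Deviations of arrays with the same number correlated between -0.068 and 0.15, and the numbers were not taken as pairs. With so few arrays these correlations cannot exclude a pairing.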

Other observations

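The tissue markers with the largest differences were ca15a of ionocytes and cryaa of lens, singled out here after their values were seen. The ionocyte marker ca15a, a carbonic anhydrase, had a log2 difference from control of -0.99 after ZnO NPs and -1.04 after ZnSO4, and the other ionocyte marker, the transcription factor foxi3a, was at -0.26 and -0.21. The lens crystallin cryaa was at -0.65 and -0.84 as the median of 4 probes. These are values without a test, and their part in the changes of the zinc-handling genes was not tested.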
